A study of Mus musculus with 3 samples.

Results

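The genes described here encode the route from imported cystine and methionine to glutathione. All probe sets assigned to 1 of 10 listed genes alone were taken, whatever their values: Slc7a11, Cth, Cbs, Gclc, Gclm, Gss, Gsr, Mat2a, Cdo1 and Ahcy. This gave 15 probe sets of 9 genes, among 34945 probe sets with 1 gene and 45101 in all. No probe set was matched to Mat2a, which was not analysed here. The cells were Melan-a NRAS61K cells, derived from an immortal line of mouse melanocytes and carrying the NRAS61K oncogene. They had grown in medium with dialyzed FCS and had received doxycycline at 1 µg/ml for 6, 14 or 28 days. Every array thus carried both the oncogene and the drug, and arrays without the drug were not used here. The labels do not state what the drug controls, and the title of the series names tumorigenic cells that arise from senescent ones. There was 1 Affymetrix array per time point. The design text speaks of 4 samples, and 3 arrays were used here.

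Glutathione is a tripeptide of glutamate, cysteine and glycine and the main small thiol of the cell. Cysteine, usually the scarce part, comes from cystine imported by the xc- exchanger or from methionine by transsulfuration. In pigment cells cysteine is also a substrate of pheomelanin, and glutathione is used against the reactive quinones formed during melanin synthesis. The transcription factors NRF2 and ATF4 are known activators of several of these genes, NRF2 through antioxidant response elements and ATF4 through CEBP-ATF response elements.

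Promoter sequence from RefSeq was matched for 6 of the 10 genes: Slc7a11, Gclm, Gss, Ahcy, Cbs and Mat2a. The 3 windows below are shown because Slc7a11 and Gclm had the widest differences between arrays among members above the background and Gss went the other way at the end. Each runs 5′ to 3′ over the 250 bases before the annotated start, with motif matches in capitals.
Slc7a11, GRCm38.p6 chr3:50443614-50443863, minus strand: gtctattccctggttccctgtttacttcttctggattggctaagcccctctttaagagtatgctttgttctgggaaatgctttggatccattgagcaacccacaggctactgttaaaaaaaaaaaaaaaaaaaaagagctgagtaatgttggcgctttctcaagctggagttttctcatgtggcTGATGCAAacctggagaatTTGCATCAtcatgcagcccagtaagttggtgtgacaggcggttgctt
Gclm, GRCm38.p6 chr3:122245307-122245556, plus strand: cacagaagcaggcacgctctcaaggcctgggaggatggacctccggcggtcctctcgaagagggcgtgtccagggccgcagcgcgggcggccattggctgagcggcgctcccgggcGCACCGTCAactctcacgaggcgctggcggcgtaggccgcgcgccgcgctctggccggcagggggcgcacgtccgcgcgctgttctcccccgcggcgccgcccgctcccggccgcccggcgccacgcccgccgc
Gss, GRCm38.p6 chr2:155592811-155593060, minus strand: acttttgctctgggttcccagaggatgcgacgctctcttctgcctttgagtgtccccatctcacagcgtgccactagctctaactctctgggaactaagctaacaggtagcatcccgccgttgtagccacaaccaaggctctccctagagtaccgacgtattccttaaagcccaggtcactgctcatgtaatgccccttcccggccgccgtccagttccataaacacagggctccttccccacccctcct
The motifs searched, on both strands, were TGACNNNGC for the antioxidant response element, TGATGNAA for the CEBP-ATF response element, and the E-box CACGTG. Slc7a11 held TGATGCAA at -66 to -59 and the same letters on the other strand, TTGCATCA, at -47 to -40, counted back from the start. Among 32851 such windows of the table, 3.45% held at least 1 match to TGATGNAA and 0.0396% (13 windows) held 2 or more. The 13 include the Slc7a11 window itself, and some genes of the table have several windows. Gclm held 1 match to the antioxidant response element, GCACCGTCA on the other strand, at -134 to -126, a motif present in 10.2% of windows. Cbs held an E-box at -229 to -224, present in 6.02% of windows, and Gss, Ahcy and Mat2a held none of the 3 motifs. No 2 matches overlapped. These matches describe letters in a window and say nothing of binding in these cells.

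Values were on a scale read as log2, with an unknown constant added. On that reading, which was inferred, a difference of 1 between arrays stands for 2-fold. Levels are not compared between genes. To judge what was above noise, 66 genes expected to be silent in pigment cells were used: the 90th percentile of their 93 probe sets served as each array's background, at 22.85, 22.62 and 22.86 in order of time. The labelled cell type was checked on its markers: 9, 10 and 9 of 12 melanocyte genes lay above the background, with list medians of 23.66, 25.88 and 25.79, while Tyr and Kit lay below it on every array. Single melanocyte genes differed by more than the median: Mlana read 24.25, 29.08 and 28.38 and Dct 23.83, 29.17 and 28.03. Others differed little, such as Pmel at 23.07, 23.38 and 23.05, though these values lay close to the background. Of other cell types, 4 of 7 macrophage and leukocyte genes lay above the background on each array (medians 23.62, 23.35 and 23.49). These were Cd68, Adgre1, Csf1r (24.36, 24.32 and 24.04) and Lyz2, while the pan-leukocyte gene Ptprc, Aif1 and Cd14 lay below it throughout. Within that list Lyz2 read 24.57, 27.17 and 27.31 and Cd68 25.09, 23.98 and 25.99, so the flat medians hide single genes that differed over the same steps. For fibroblasts it was 5, 4 and 5 of 7 genes (medians 23.88, 23.39 and 23.60), with Ogn at 24.29, 27.47 and 25.59 and Pdgfra at 23.88, 24.26 and 25.50. For keratinocytes and endothelium it was 1 of 5 (Krt5) and 1 of 6 (Cdh5, at 23.70, 25.85 and 27.93) on each array. The 3′ minus 5′ difference of Actb, a sign of RNA quality, was 0.58, 0.76 and 0.75. The part of marker levels and RNA quality in the differences below was not tested.

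Of the 15 member probe sets, 11 lay above the background on all 3 arrays, for 6 genes: Slc7a11, Gclc, Gclm, Gss, Gsr and Ahcy. The other 4, for the transsulfuration enzymes Cbs and Cth and the cysteine dioxygenase gene Cdo1, lay below it on all 3. Differences of these 4 are therefore not read. Of the 6 genes above the background, all but Ahcy had a pair of probe sets, and these pairs are the nearest thing to a repeat measurement in the data. Both of a pair read the same RNA on the same array, so they repeat neither the culture nor the hybridization.

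**Figure D1:**
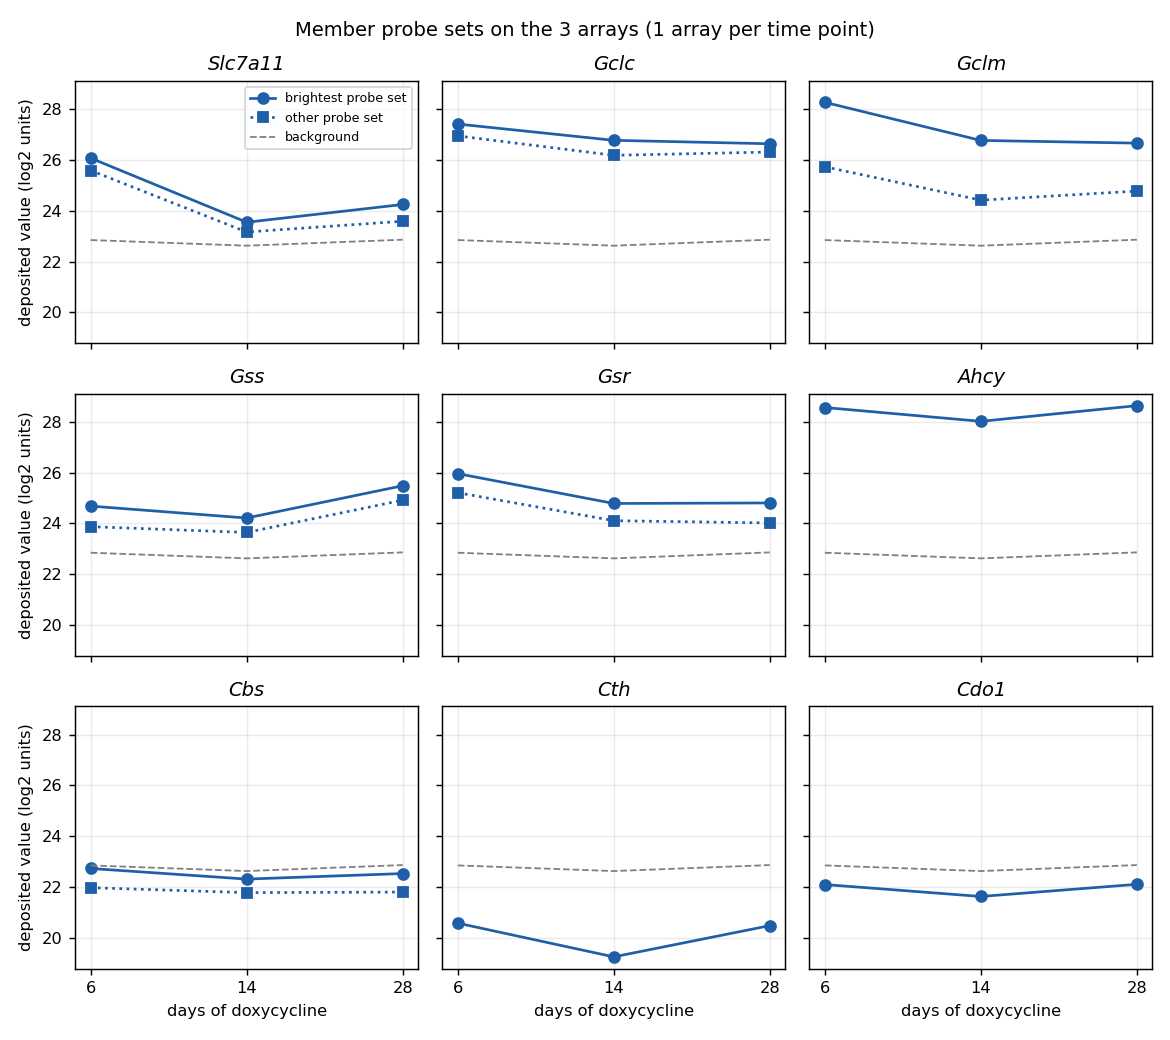
Deposited value (log2 units, vertical axis) of each member probe set after 6, 14 and 28 days of doxycycline (horizontal axis, 1 array each, no error bars), with circles for a gene's brightest probe set, squares for the other and a dashed line for the background. Slc7a11, Gclm and Gsr were lower on both later arrays, Gss was highest at day 28, and Cbs, Cth and Cdo1 stayed below the background.

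Slc7a11 encodes the light chain of the xc- exchanger, which takes up cystine in return for glutamate. Its brighter probe set read 26.08 at day 6, 23.55 at day 14 and 24.25 at day 28. The other read 25.59, 23.16 and 23.59. In bulk RNA, fewer cells that express a gene and less of its RNA per cell cannot be told apart. Both probe sets were highest at day 6 and lowest at day 14, where they lay only 0.92 and 0.54 above the background. Day 14 was 5.76-fold and 5.37-fold lower than day 6, log2 differences of -2.53 and -2.42 that ranked 8 and 10 from the lowest of 21093 probe sets compared. Day 28 was 0.70 and 0.42 above day 14, and still 3.55-fold and 4.00-fold below day 6.

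Slc3a2 encodes the heavy chain that carries this light chain, and others, to the membrane. It read 29.03, 28.65 and 28.75, a difference of -0.38 from day 6 to day 14. Relative to Slc3a2, Slc7a11 differed over this step by -2.15 and -2.05 on its 2 probe sets. Such a contrast within arrays cancels a constant shift of a whole array, but not the quantile normalization, which acts by intensity.

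Gclc and Gclm encode the catalytic and the modifier subunit of glutamate-cysteine ligase, the rate-limiting enzyme of glutathione synthesis. Gclm read 28.28, 26.77 and 26.67 on its brighter probe set and 25.73, 24.42 and 24.78 on the other. Day 6 was the highest on both, and the later arrays lay close together. Day 14 was 2.83-fold and 2.49-fold lower than day 6, and day 28 was 3.05-fold and 1.94-fold lower, so that 1 of the pair missed the 2-fold mark at the end. The pair differed in sign between days 14 and 28, at -0.11 and 0.36.

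Gclc read 27.42, 26.78 and 26.64 on one probe set and 26.95, 26.19 and 26.32 on the other. It was lower on both later arrays, by less than 2-fold throughout. Day 14 was 1.56-fold and 1.70-fold lower than day 6, and day 28 was 1.71-fold and 1.55-fold lower. Relative to Gclc, Gclm differed by -0.86 at day 14 on the main probe sets, with -0.86 to -0.55 over the 4 pairings of probe sets. At day 28 against day 6 the same contrast ran from -0.98 to -0.18, so its size depended on the probe sets chosen.

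Gss encodes glutathione synthetase, which adds glycine in the last step. It read 24.68, 24.21 and 25.49 on one probe set and 23.87, 23.65 and 24.92 on the other. Day 28 was the highest on both and days 6 and 14 lay near each other. Day 14 was 1.38-fold and 1.17-fold lower than day 6. Day 28 exceeded day 14 by 2.42-fold on each, with log2 differences of 1.27 and 1.27 that ranked 193 and 194 from the highest of 20914 probe sets. Against day 6 it was 1.74-fold and 2.06-fold higher.

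The synthetase and the ligase subunits thus parted, from Gclc mainly over the second step and from Gclm over both steps. From day 6 to day 14, Gss differed by 0.17 relative to Gclc (0.17 to 0.54 over the 4 pairings) and by 1.03 relative to Gclm (0.85 to 1.27). Relative to Gclc, Gss differed by 1.41 from day 14 to day 28 (1.14 to 1.41 over the 4 pairings) and by 1.58 from day 6 to day 28 (1.44 to 1.82). Relative to Gclm, Gss differed by 1.38 from day 14 to day 28 (0.91 to 1.38) and by 2.41 from day 6 to day 28 (1.76 to 2.65).

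Gsr encodes glutathione reductase, which returns oxidized glutathione to its reduced form with NADPH. It read 25.96, 24.79 and 24.81 on one probe set and 25.21, 24.11 and 24.02 on the other. Day 6 stood above both later arrays, which lay within 0.09 of each other on each probe set. Day 14 was 2.26-fold and 2.15-fold lower than day 6, and day 28 was 2.23-fold and 2.28-fold lower. With the arrays shifted to equal reference genes, the day 14 differences became -0.92 and -0.84, below 2-fold.

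Ahcy encodes the enzyme that splits S-adenosylhomocysteine into adenosine and homocysteine, the entry to transsulfuration. Its single probe set read 28.57, 28.03 and 28.64. Day 14 was the lowest, 1.46-fold below day 6 and 1.53-fold below day 28, while days 6 and 28 differed by 0.07.

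Cbs and Cth join homocysteine to serine and release cysteine from the product. Cbs read 22.73, 22.31 and 22.53 on its brighter probe set, within 0.12 to 0.33 of the background, and 21.97, 21.78 and 21.80 on the other. Cth read 20.57, 19.24 and 20.47, at least 2.28 below the background. Cdo1, which oxidizes cysteine toward taurine and sulfate, read 22.09, 21.62 and 22.10. All 4 probe sets were lowest at day 14, in a range where values of this table are not distinguished from silent genes.

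Beside the whole array, day 14 against day 6 gave 6 of 11 member probe sets 2-fold lower and 0 higher, where 4.19% of all 21093 probe sets compared were 2-fold lower and 5.43% higher. The 6 belonged to 3 genes, Slc7a11, Gclm and Gsr, so they are not 6 separate observations. The members, and the lists used below, were chosen with earlier results of these data known. Their shares beside those of all probe sets or genes are therefore a description, not a test of the set. The member median was -1.10 and that of all probe sets -0.03. All 11 were below 0, though with equal reference genes 1 probe set of Gss turned to 0.03.

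Between days 14 and 28, 2 of 11 were 2-fold higher, both of Gss, and 0 lower, against 1.76% higher and 2.22% lower of 20914. The median was 0.36 beside 0.00 for all, with 8 above 0 and 3 below. A Gsr probe set at 0.02 turned to -0.02 with equal hybridization controls and to -0.10 with equal reference genes.

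From day 6 to day 28, 5 of 11 were 2-fold lower and 1 higher, against 4.99% lower and 5.9% higher of 20613. The lower ones were both of Slc7a11, both of Gsr and 1 of Gclm, and the higher one was of Gss. The median was -0.96 beside -0.03. Ahcy turned from 0.07 to -0.04 with equal hybridization controls. The 3 comparisons share arrays in pairs, so an error of the day 6 array enters 2 of them with the same sign and an error of the day 14 array enters both steps with opposite signs.

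With 1 array each, no spread between cultures can be given, and no test was run. The SD of differences between probe sets of one gene, over all genes with several above the background, was 0.30 over the first step, 0.24 over the second and 0.31 over the whole course. It covers measurement error and any true difference between what a gene's probe sets detect, and leaves out error that they share. Being pooled over genes, it is not specific to probe sets near the background, such as those of Slc7a11 at day 14. The Slc7a11 differences at day 14 were 8.40 and 8.05 such SDs, those of Gclm 4.99 and 4.37, and those of Gsr 3.90 and 3.66. For Gclc they were 2.13 and 2.54 and for Ahcy 1.81, while the lesser Gss difference was 0.76 of an SD.

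**Figure D2:**
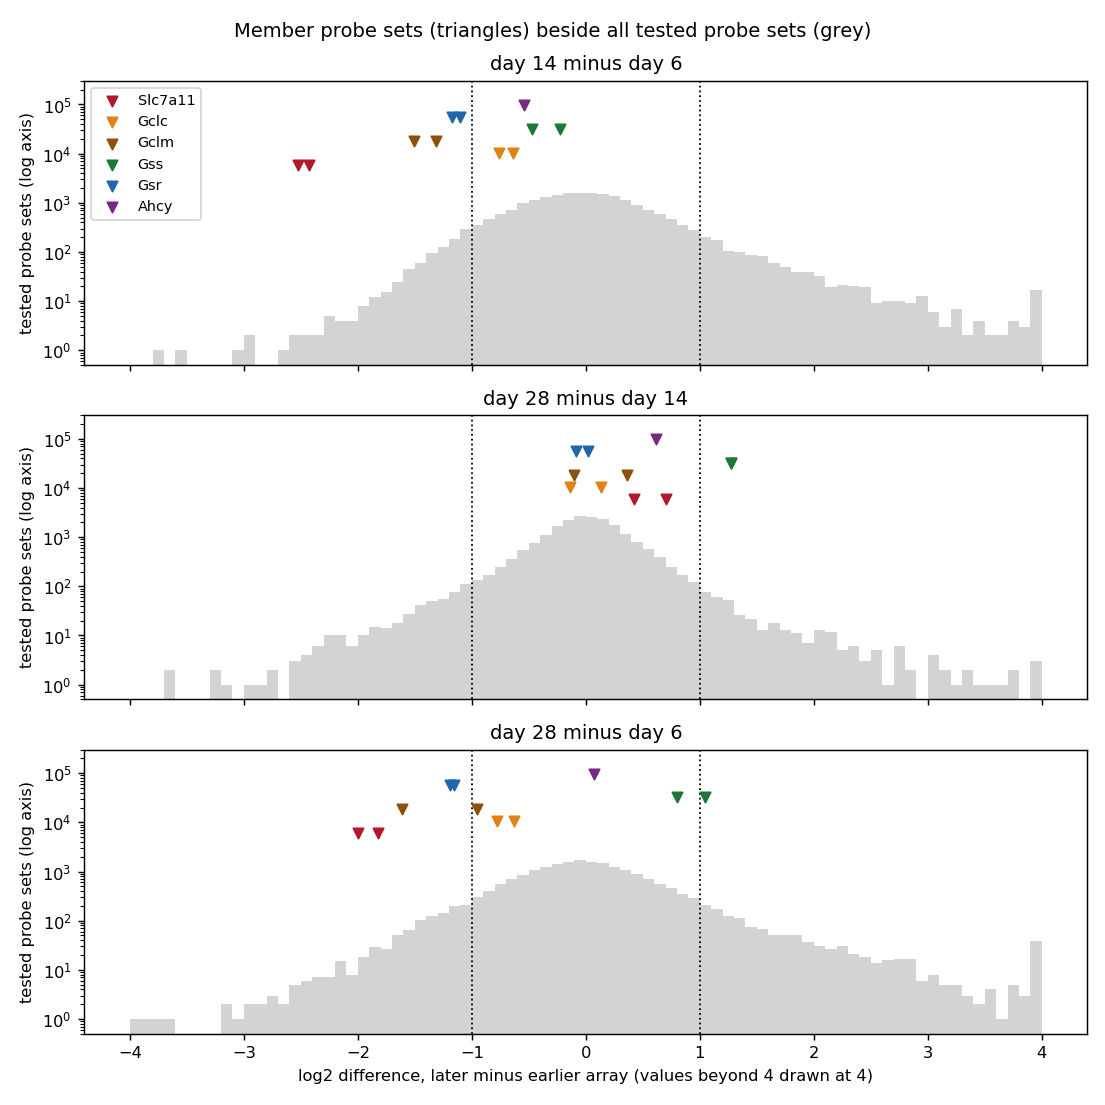
Number of probe sets compared (grey, log axis) by log2 difference between 2 arrays, 1 panel per comparison, with triangles for the 11 member probe sets above the background; the height of a triangle only separates genes, and dotted lines mark 2-fold. Slc7a11, Gclm and Gsr lie beyond -1 at day 14, while the Gss triangles, which overlap at 1.27, lie beyond 1 from day 14 to day 28.

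Other genes of the pathway were taken from 6 lists of 110 genes, of which 100 had a probe set, and each gene was read on its brightest one. At day 14 against day 6, 3 of 85 were 2-fold higher (3.53%) and 6 lower (7.06%), where 5.5% of all 11707 genes were higher and 3.87% lower. From day 14 to day 28, 2 of 84 were higher (2.38%) and 0 lower, against 2.17% and 1.46% of 11679. From day 6 to day 28, 4 of 85 were higher (4.71%) and 2 lower (2.35%), against 6.61% and 4.01% of 11563. The shares in the later comparisons lay near those of all genes.

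Among cystine and amino acid transporters, 1 of 6 was 2-fold higher and 1 lower at day 14. Slc1a4, a carrier of neutral amino acids, read 26.31, 25.08 and 25.48, 2.35-fold lower at day 14, and its other probe sets gave -1.36 and -1.78. Ctns, which exports cystine from lysosomes, read 25.18, 26.19 and 26.10 and was 2.01-fold higher at day 14. This lay just past the 2-fold mark, as a log2 difference of 1.01.

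In the list of glutathione use and turnover, Chac1 was the farthest apart over the first step and Ggt7 over the second and over the whole course. Chac1, which cleaves glutathione in the cytosol, read 25.95, 24.11 and 25.33, which is 3.58-fold lower over the first step and 2.33-fold higher over the second. Its relative Chac2 read 25.99, 24.67 and 24.95, 2.49-fold lower at day 14 and 2.05-fold lower at day 28 than at day 6. Ggt7, of the gamma-glutamyltransferase family, read 25.28, 25.32 and 26.59, and day 28 exceeded day 14 by 2.41-fold. Mgst1, a membrane-bound glutathione transferase, was 2.07-fold higher at day 14. In all, 1 of 29 genes of glutathione use and turnover was 2-fold higher and 2 were lower at day 14, then 2 higher and 0 lower at day 28. The lipid peroxidase gene Gpx4 was not named by the rule and is added after its values were seen. It read 29.00, 28.98 and 29.05, the narrowest range among the genes of that list above the background.

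Among 16 genes of the methionine cycle and sulfur oxidation, 1 was 2-fold higher and 2 were lower at day 14. Csad, which makes hypotaurine from cysteine sulfinate, was 2.36-fold higher, while Ethe1, which oxidizes persulfide in mitochondria, was 2.42-fold lower and the spermidine synthase gene Srm 2.68-fold lower. At day 28 against day 6, Suox, the sulfite oxidase gene, was 2.62-fold higher, Csad 2.07-fold higher and Srm 3.54-fold lower. Suox lay near the background at day 6 (23.05 against 22.85).

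Of 10 thioredoxin system genes, 0 were 2-fold apart in either step, with a median of -0.47 at day 14. From day 6 to day 28 Txnip, an inhibitor of thioredoxin, stood 2.49-fold higher, and its other probe set gave 1.15. None of 9 genes of NADPH supply, which feed the reductase, was 2-fold apart in any of the 3 comparisons. Their medians were -0.50, 0.17 and -0.15 in the order day 14 against 6, 28 against 14 and 28 against 6, beside medians of -0.03, 0.03 and 0.01 over all genes.

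Among 15 regulators, 1 was 2-fold lower at day 14 and 0 were higher. Atf4 read 28.88, 28.03 and 28.47, a difference of -0.85 and then 0.44, with -0.80 and 0.31 on another probe set above the background. Trib3, a target and inhibitor of ATF4, was 2.40-fold lower at day 14, and its probe sets gave 0.93 and 1.13 from day 14 to day 28. Nfe2l2, the gene of NRF2, read 27.86, 27.89 and 28.27, and a dimmer probe set read 22.88, 24.21 and 22.85. At day 6 it barely exceeded the background and at day 28 it lay just below, so its differences are not read. The NRF2 inhibitor gene Keap1 differed by -0.17 and then 0.06, with -0.40 and -0.16 on its other probe set, so the sign of the second step was not settled. Bach1, a repressor at antioxidant response elements, differed by 0.61 and then -0.16, with 0.57 and -1.09 on its other probe set. These are transcript levels, and both NRF2 and ATF4 are known to be controlled largely after transcription.

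**Figure D3:**
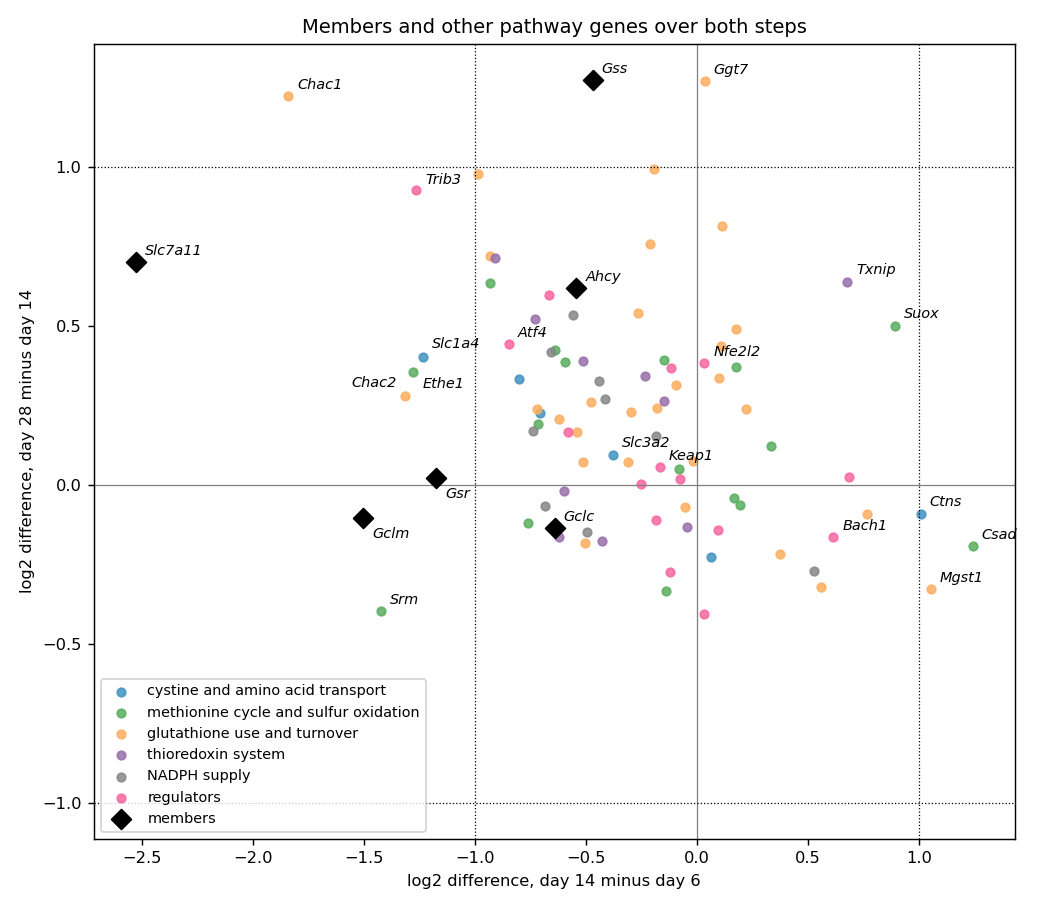
Log2 difference from day 6 to day 14 (horizontal) and from day 14 to day 28 (vertical) for the 6 members above the background (black diamonds) and other pathway genes by list (coloured points), each on its brightest probe set; dotted lines mark 2-fold. Slc7a11 lies farthest to the left at -2.53, Chac1 at -1.84 and 1.22 reverses in part, and Gss at 1.27 lies highest among the members.

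Genes nearest to a member in both steps were sought among 11855 genes above the background on at least 1 array, by Euclidean distance over 2 differences from 3 arrays. Each gene was read on its brightest probe set only. Nearest to Slc7a11 were Adh7 (distance 0.23), Mnd1 (0.28) and Lce1h (0.36), of which Mnd1 lay above the background on 1 array and Lce1h on 2. For Gclm they were the mitosis genes Aurka (0.01), Trip13 (0.03) and Ube2c (0.07), for Gsr they were Tex30 (0.02), Dnaaf2 (0.04) and Dnajc21 (0.04), and for Gss they were Spred3 (0.07), Metrn (0.09) and 1110008P14Rik (0.09). The distances around Slc7a11 were the widest of the 4, with few genes near it. The 2 probe sets of Gclm differed from each other by 0.46 over the second step, more than any of these distances. The genes named near Gclm therefore depend on the probe set used. Over 3 arrays many genes share a pattern, and nearness is a description only.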

How the data were processed

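Expression was measured on 1 Affymetrix array per time point (6, 14 and 28 days). Per the labels' protocols, column-purified total RNA was made into biotin-labelled cRNA. The deposited values are read as log2: the base was inferred from hybridization controls, which had slopes of 0.79 to 0.80 against log2 concentration. The way probes were summarized was not given in the sources used here, and the 3 deposited columns held identical values once sorted, so the authors had quantile normalized them, and a shift common to most genes cannot be seen. With a lowest value of 1.46, a highest of 30.6 and a median of 22.9, an unstated constant or scaling applies. The fold values given here assume a constant and would differ under a scaling.

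Gene names came from GEO's annotation of the array, brought up to date by Entrez number in a RefSeq table (GRCm38.p6). Of all probe sets, 34945 had 1 gene, 932 several and 9211 were not listed. Probe sets entered a comparison if either array exceeded its background. Differences were taken per probe set and, for counts over 18193 genes, on the brightest one. A log2 difference of 1 counted as 2-fold, with no test. Named genes were all members, list genes 2-fold apart (up to 8 per list), Slc3a2, Nfe2l2, Atf4, Keap1 and Bach1, and the 3 nearest genes per 2-fold member. Members and lists were chosen with earlier results of these data known. The 8 alternatives covered fold, probe set choice, background, dim values and scaling. Python 3.11.15 with numpy 2.4.6 and pandas 2.3.3 was used. The steps were run on simulated data with changes planted in bright probe sets only and with little noise. This checks the code and says nothing of how well changes near the background are recovered.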

Additional observations from a re-analysis of the deposited data

How the results depend on the processing

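The number of arrays, 1 per time point, limits every value, and dim probe sets limit Cbs, Cth and Cdo1. No paired analysis was possible because each time point has 1 array and the result comes from no test. Of 90 counts of members recomputed under 8 alternatives, 81 stayed within 1.5 times the reported count. This share is no measure of robustness, because many counts had little room to move. The 11 probe sets compared lay above the background on every array, and a lower background or raised dim values left every count as reported. The 81 also take in the fall from 6 to 4 given below. At 1.5-fold, 4 probe sets and 3 genes were higher at day 28 than at day 14 (2 and 1 as reported), where 6.57% of all probe sets were higher. Against day 6, 2 of 11 probe sets and 1 gene were higher (1 and 0) and 8 probe sets lower (5), where 14.5% of all were higher and 15.1% lower, so the higher ones lay near the overall share. With no filter on dim probe sets, 3 probe sets and 2 genes were higher at day 28 than at day 14. Cth was the one added, and 4.41% of all probe sets were higher. Without probe sets that may detect several transcripts (_s_at, _x_at and _a_at), 1 was higher at day 28 than at day 14 and 0 than at day 6. No share over all probe sets is given for that setting. With equal hybridization controls, 0 were higher at day 28 than at day 6, where 4.75% of all probe sets were higher. At equal reference genes, 4 member probe sets were 2-fold lower at day 14 (6 as reported), those of Gsr being lost, while the share over all probe sets went from 4.19% to 1.55%. No called difference of a member changed sign, but this could hardly have come out otherwise. Scaling moved the median of all probe sets by at most 0.26, and a call needs a log2 difference of 1.

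Scaling moved the median of all probe sets by 0.26 (day 14 against 6), -0.12 (28 against 14) and 0.14 (28 against 6) with equal reference genes, and by -0.08, -0.04 and -0.12 with equal hybridization controls. The share of 2-fold calls that were higher, over all probe sets, went from 56.4% to 86.2% and 46.1% for day 14 against 6, from 44.2% to 30.7% and 40.2% for 28 against 14, and from 54.2% to 69.0% and 41.0% for 28 against 6, in the same order of scalings.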

Other observations

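Mat1a, the liver form of methionine adenosyltransferase, lay below the background on all arrays and read 19.79 and 20.24 at days 6 and 14 but 9.76 at day 28. This shows how far a value of this table can move below the background, where Cth also lies. Among other genes of glutathione use that missed the 2-fold mark, Ggct, which acts on gamma-glutamyl dipeptides, differed by -0.99 and then 0.98, and Mgst2 by -0.19 and then 0.99. Both were chosen after their values were seen.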
